A study of Homo sapiens with 8 samples.

Results

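The genes described here encode proteins of the large (60S) ribosomal subunit. A list of 45 such genes was taken by symbol, and all 45 are present in both count tables, which share 12873 symbols. They were measured in an established human cell line, SH-SY5Y neuroblastoma cells, carrying either a short hairpin RNA against RPS29 (shRPS29) or a control hairpin (shCONT). RPS29 is a protein of the small (40S) subunit, so the depleted protein lies outside the subunit examined. RNA-seq and ribosome profiling (Ribo-seq, sequencing of the RNA fragments that ribosomes protect from nuclease) were each done on 2 shRPS29 and 2 shCONT libraries, 8 libraries in 4 groups. The sources used here do not give the hairpin sequences, their number, the delivery or the days of knockdown. The labels do not say whether replicates were separate cultures, so p-values measure the spread between these libraries, which may be technical. Because every library is a bulk sample, less RNA per cell cannot be told apart from fewer cells that express a gene.

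The large subunit holds the peptidyl transferase centre, where peptide bonds form, and the tunnel through which the new chain leaves. Its proteins are made in balanced amounts with the ribosomal RNAs and are assembled in the nucleolus. Most of their mRNAs are TOP mRNAs, which start with a run of pyrimidines (a 5′ terminal oligopyrimidine tract) through which mTORC1 signalling and LARP1 control their translation and stability. RPL5 and RPL11 form a particle with 5S rRNA, the 5S RNP. When ribosome assembly is disturbed, this particle can bind MDM2, the ubiquitin ligase that keeps p53 low.

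The pyrimidine run is the sequence feature these mRNAs are known to share, so the annotated starts were read from RefSeq (GRCh38.p14), where 38 of the 45 symbols had an entry. A run was counted where a C within 3 bases of the annotated start was followed on the gene's strand by C or T only, for at least 5 bases in all. It was found in 32 of the 38 genes (84.2%), in 22 of 25 genes for 40S proteins (88.0%), in 9 of 46 genes for 60S assembly and export factors (19.6%), and in 2808 of 15843 protein-coding genes (17.7%). RPL23A and RPL37, whose RNA changed most of the 45 genes, had no entry. The windows below cover the genes with an entry whose RNA changed most, genes whose RNA was not called, and members singled out in Ribo-seq. Each runs from 10 bases before the annotated start through its first 20 transcribed bases, with the run in capitals.
RPL34, chr4:108620566-108620595, plus strand: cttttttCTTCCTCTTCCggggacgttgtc
RPL13A, chr19:49487598-49487627, plus strand: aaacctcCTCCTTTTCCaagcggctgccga
RPL31, chr2:101002279-101002308, plus strand: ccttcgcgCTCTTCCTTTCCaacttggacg
RPL36A, chrX:101391001-101391030, plus strand: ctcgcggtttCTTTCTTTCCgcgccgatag
RPL4, chr15:66504836-66504865, minus strand: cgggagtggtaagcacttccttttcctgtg
RPL11, chr1:23691796-23691825, plus strand: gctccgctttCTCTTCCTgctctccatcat
RPLP0, chr12:120201092-120201121, minus strand: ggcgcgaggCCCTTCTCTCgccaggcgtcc
RPLP1, chr15:69452808-69452837, plus strand: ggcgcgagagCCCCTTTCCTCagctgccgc
RPLP2, chr11:809957-809986, plus strand: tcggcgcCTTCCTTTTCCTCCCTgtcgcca
RPL12, chr9:127451387-127451416, minus strand: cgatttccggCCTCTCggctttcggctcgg
RPL35, chr9:124861938-124861967, minus strand: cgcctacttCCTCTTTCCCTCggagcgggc
RPL36, chr19:5690285-5690314, plus strand: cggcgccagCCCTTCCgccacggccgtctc
RPL38, chr17:74203668-74203697, plus strand: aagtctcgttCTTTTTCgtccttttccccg
RPL35A, chr3:197950180-197950209, plus strand: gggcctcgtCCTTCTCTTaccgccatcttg
RPL6, chr12:112409266-112409295, minus strand: gacggcgcgtgcactgtgttcctggtcctg
A run of 6 to 16 bases was present at the start of the 6 genes whose RNA was not called as well as at the starts of RPL34, RPL13A, RPL31 and RPL36A. RPL4 and RPL6 had no run that began within 3 bases of the annotated start. The RPL4 window holds a stretch of C and T further in (cttccttttcct), which the position rule does not count.

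The knockdown was seen in the RPS29 counts. RPS29 RNA fell from 137 and 160 CPM (counts relative to library size, corrected for composition) in the controls to 7.53 and 6.46 CPM, a log2 fold change of -4.40 (SE 0.115, edgeR quasi-likelihood F test, adjusted p = 6.32e-12). RNA-seq libraries held 17539104 to 19156104 counts and Ribo-seq libraries 2630463 to 4375971. Spearman correlations between libraries, across genes, were 0.985 to 0.993 in RNA-seq and 0.455 to 0.827 in Ribo-seq. Marker levels are CPM on total counts, without the correction for composition. Of the noradrenergic neuroblastoma markers, 10 of 11 were above 1 CPM, with a summed level of 7130 to 7700 CPM in all 4 RNA libraries. Summed epithelial markers (1 of 6 above 1 CPM) lay between 3.29 and 5.50 CPM. Summed blood cell markers (1 of 6) were at 6.23 and 7.23 CPM with shCONT and 10.6 and 14.5 CPM with shRPS29. Among the markers not listed in the RNA table were KRT5, KRT14, CD3E and HBB. Mesenchymal markers (5 of 7) summed to 663 and 624 CPM with shCONT and 812 and 813 CPM with shRPS29. The part of these markers in the results was not tested.

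RNA for the large-subunit proteins was lower after RPS29 knockdown across almost the whole set. In edgeR's test 39 of the 45 genes fell and 0 rose at an adjusted p below 0.05, and the 39 log2 fold changes lay between -0.94 and -0.25. No further member reached an unadjusted p below 0.05 in either direction, and DESeq2 and limma-voom called 36 and 39 members lower and 0 higher. Of all 14723 genes tested, 16.3% were called lower (2396) and 14.4% higher (2126), and with total counts as the only scaling 1777 were lower and 3002 higher, with 38 members lower. The median log2 fold change of the 45 genes was -0.50, a level 0.708 times that of the controls, against a median of 0.007 over all genes tested. Genes for 40S proteins were alike, with 24 of 32 lower, 0 higher and a median of -0.53. Among 2386 genes with at least 100 RNA CPM, a range that holds all 45 members, 29.8% were called lower and the median was -0.04.

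The fall was seen in both knockdown libraries. Both shRPS29 libraries lay below both shCONT libraries in 39 of the 45 genes, compared with 32.9% of all genes tested. Replicate 2 of the knockdown was the lowest of the 4 RNA libraries in all 45 genes, and the median log2 ratio of the members to the control mean was -0.39 in replicate 1 and -0.62 in replicate 2. The 45 genes together took 4.07 and 4.24% of RNA counts with shCONT and 3.31 and 2.85% with shRPS29. Without knockdown replicate 2 the median was -0.38 with 38 genes called lower, and without control replicate 2 it was -0.47 with 28 called lower.

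**Figure D1:**
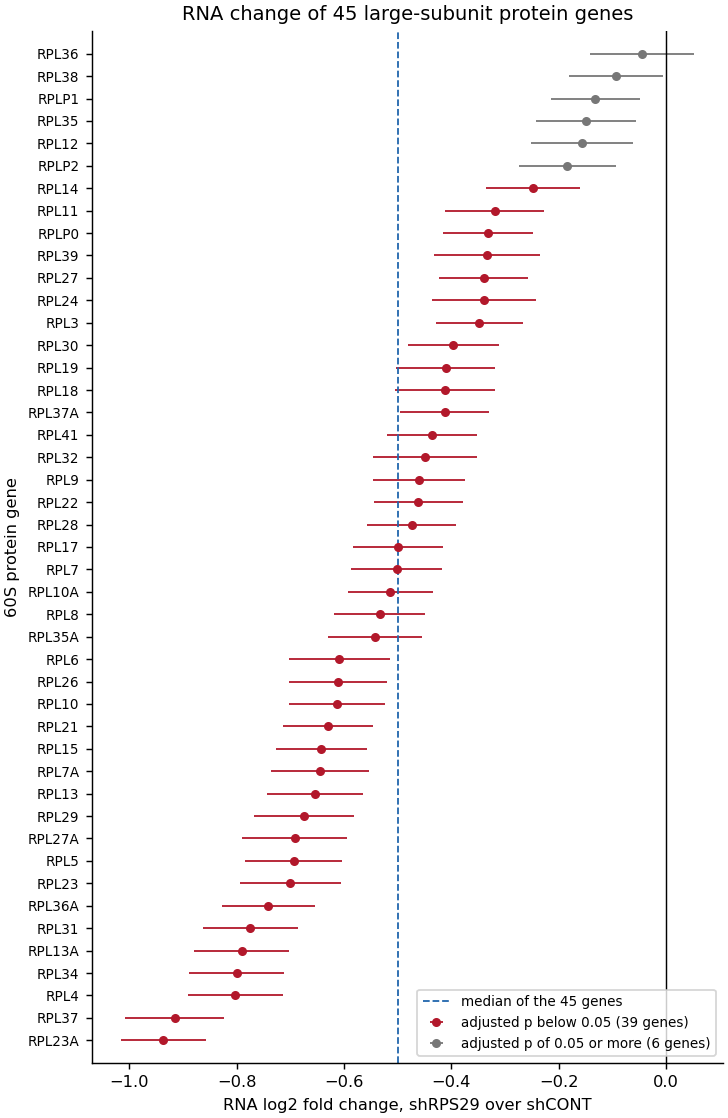
RNA log2 fold change of each of the 45 genes, shRPS29 over shCONT, with its standard error (2 libraries a group). All 45 values lie below 0, and the 6 grey genes (RPL36, RPL38, RPLP1, RPL35, RPL12 and RPLP2) were not called.

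RPL5 and RPL11, the protein partners of 5S rRNA, were both lower, RPL5 by the larger amount. RPL5 (chr1:92831986-92841924, GRCh38.p14) stood at 898 and 943 CPM with shCONT and 624 and 514 CPM with shRPS29. The 2 groups did not overlap. RPL5 changed by -0.69 on the log2 scale (SE 0.090, edgeR adjusted p = 5.27e-05). RPL11 (chr1:23691779-23696835) stood at 714 and 806 CPM with shCONT and 665 and 552 CPM with shRPS29. Its groups did not overlap either, but replicate 1 of each group differed by little, and RPL11 changed by -0.32 on that scale (SE 0.093, edgeR adjusted p = 0.0169). The RPL11 call was lost without control replicate 2 (log2 fold change -0.23, edgeR adjusted p = 0.308), whereas RPL5 stayed called in every fit with a library left out. The difference between the 2 genes was not tested.

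The proteins of the P stalk, the flexible arm that recruits and activates the translation GTPases, had the smallest median change of the role groups (-0.17), with 1 of 4 called. RPLP0, which anchors the stalk, stood at 2343 and 2380.5 CPM with shCONT and 1991 and 1762 CPM with shRPS29, a log2 fold change of -0.33 (SE 0.085, edgeR adjusted p = 0.00807). That call was lost without either control library. RPLP1, an acidic stalk protein, had 1209.5 and 1306 CPM with shCONT and 1210.4 and 1085 CPM with shRPS29, and RPLP2, its partner, had 773 and 898 CPM against 785 and 686 CPM. RPL12, which sits at the base of the stalk, had 835 and 912 CPM with shCONT and 865 and 703 CPM with shRPS29. The groups overlapped for RPLP1, RPLP2 and RPL12, whose log2 fold changes were -0.13 (SE 0.083), -0.18 (SE 0.090) and -0.16 (SE 0.094), with edgeR adjusted p of 0.255, 0.141 and 0.234.

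**Figure D2:**
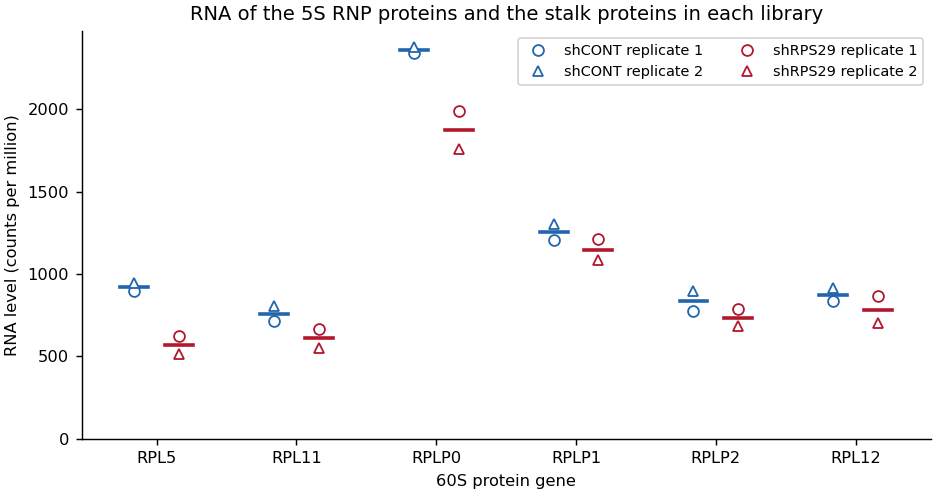
RNA level in CPM of the 5S RNP proteins and the stalk proteins in each of the 4 RNA-seq libraries, with bars for group means of 2 libraries. RPL5 is higher with shCONT (898 and 943) than with shRPS29 (624 and 514), and the groups overlap for RPLP1, RPLP2 and RPL12. CPM is not divided by gene length, so levels compare within a gene only.

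RPL36, RPL38 and RPL35 were the other members that were not called. RPL36 had 314 and 321 CPM with shCONT and 347 and 269 CPM with shRPS29 (log2 fold change -0.04, SE 0.097), so the control values lay inside the knockdown range. RPL38, a small protein of the subunit surface, had 397 and 431 CPM against 425 and 352 CPM (-0.09, SE 0.088). RPL35, at the rim of the exit tunnel, had 663 and 685 CPM against 675 and 541 CPM (-0.15, SE 0.093). In these 3 genes knockdown replicate 1 was within or above the control range and replicate 2 was below it. All 6 uncalled genes were called lower when replicate 1 of the knockdown was left out, and RPL35, RPL36 and RPL38 turned positive without replicate 2.

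Of the 9 genes for proteins around the peptide exit tunnel, RNA was called lower for 8, with a median of -0.50. Over all 45 members 86.7% were called lower, also with a median of -0.50. RPL23A, at the tunnel exit where signal recognition particle docks, changed most of the 45 genes. It stood at 673 and 723 CPM with shCONT and 385 and 344 CPM with shRPS29, a log2 fold change of -0.94 (SE 0.079, edgeR adjusted p = 1.19e-06). RPL4, which reaches into the tunnel wall, stood at 2030 and 2223 CPM against 1301 and 1136 CPM (-0.80, SE 0.089). Both knockdown libraries were far below both controls in these 2 genes. RPL31 at the tunnel rim had a log2 fold change of -0.77 (SE 0.088), and RPL26, RPL17, RPL22, RPL19 and RPL39 lay between -0.61 and -0.33. Near the catalytic centre and in the L1 stalk, 5 of 5 genes fell, with a median of -0.53. They were RPL4, RPL10 (-0.61, SE 0.090), whose loading is a late step of 60S maturation, RPL8 (-0.53), RPL10A of the L1 stalk (-0.51) and RPL3 (-0.35, SE 0.081). RPL3 lost its call without either control library.

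Of the 26 genes outside these groups, 24 fell and the median was -0.52. RPL37 had the second largest change of all members, from 491 and 597 CPM with shCONT to 304 and 273 CPM with shRPS29 (log2 fold change -0.92, SE 0.092, edgeR adjusted p = 5.80e-06). RPL23A and RPL37 were the 2 members that also passed a test against a 1.5-fold change. RPL34 stood at 393 and 428 CPM against 258 and 213 CPM (-0.80, SE 0.089), with no overlap, and RPL13A (-0.79) and RPL36A (-0.74) followed. RPL23, RPL27A, RPL29, RPL13, RPL7A, RPL15, RPL21 and RPL6 lay between -0.70 and -0.61, and RPL35A, RPL7, RPL28, RPL9, RPL32, RPL41, RPL37A, RPL18 and RPL30 between -0.54 and -0.40. RPL24 and RPL27 were both at -0.34, and RPL14 was the called gene nearest the threshold (-0.25, SE 0.087, edgeR adjusted p = 0.0436). Among the fits with a library left out or another scaling, its call was lost without either control, without knockdown replicate 2 and with total counts alone.

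Among the 9 members in which mutations cause Diamond-Blackfan anaemia, an inherited failure of red cell production, 8 fell. This share (88.9%) was near that of all 45 members (86.7%), and the median was -0.54, against -0.50. The exception was RPL35. The other genes were RPL31, RPL5, RPL15, RPL26, RPL35A, RPL18, RPL27 and RPL11, from -0.77 to -0.32. Across the 45 genes the RNA log2 fold change had a Pearson r of -0.39 (Spearman rho -0.41) with the number of annotated pseudogenes and -0.32 (rho -0.33) with gene span. It had r = -0.18 (rho -0.16) with control RNA level, and r = 0.08 (rho 0.01) with the length of the pyrimidine run over 38 genes. These points share 4 libraries, so the correlations are descriptions. Members that hold an annotated small RNA gene in their span had a median of -0.61 (21 genes, 19 called) and the others -0.42 (24 genes, 20 called), and that difference was not tested. The members have annotated pseudogenes, counted by symbol, from 5 for RPL8 and RPL11 to 137 for RPL21. How reads shared with them were assigned is not given.

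Of the paralogs of members, RPL36AL, a near copy of RPL36A, was lower (-0.61), and RPL7L1, a nucleolar relative of RPL7, was higher (0.26). The other listed paralogs that were tested in RNA-seq were not called.

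Genes that build the 60S subunit moved the opposite way to the genes for its proteins. Of 53 assembly and export factors, 26 rose (49.1%, against 14.4% of all genes tested) and 3 fell (5.66%, against 16.3%). Their median was 0.20. BOP1 of the PeBoW complex had a log2 fold change of 0.62 (SE 0.070) and DDX27, an RNA helicase, 0.64 (SE 0.074), whereas the GTPase GTPBP4 had -0.86 (SE 0.072). Other TOP RNAs, mostly mRNAs of translation factors, had 12 of 23 lower (52.2%, against 16.3% of all genes tested) and 2 higher (8.7%, against 14.4%). Their median was -0.28. That list also holds noncoding RNAs, and the higher genes include a noncoding RNA. The lower genes included EIF4B (-1.25), TPT1 (-1.14) and EIF3L (-0.96). Of 13 regulators of TOP mRNAs, 3 rose (23.1%, against 14.4% of all genes tested) and 1 fell (7.69%, against 16.3%). Their median was 0.03. Among those that rose were SESN2 (0.74) and TSC2 (0.41), which restrain mTORC1. DDIT4, which also restrains mTORC1, was the 1 regulator that fell (-0.97), and LARP1 (-0.10) and MTOR (0.07) were not called.

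**Figure D3:**
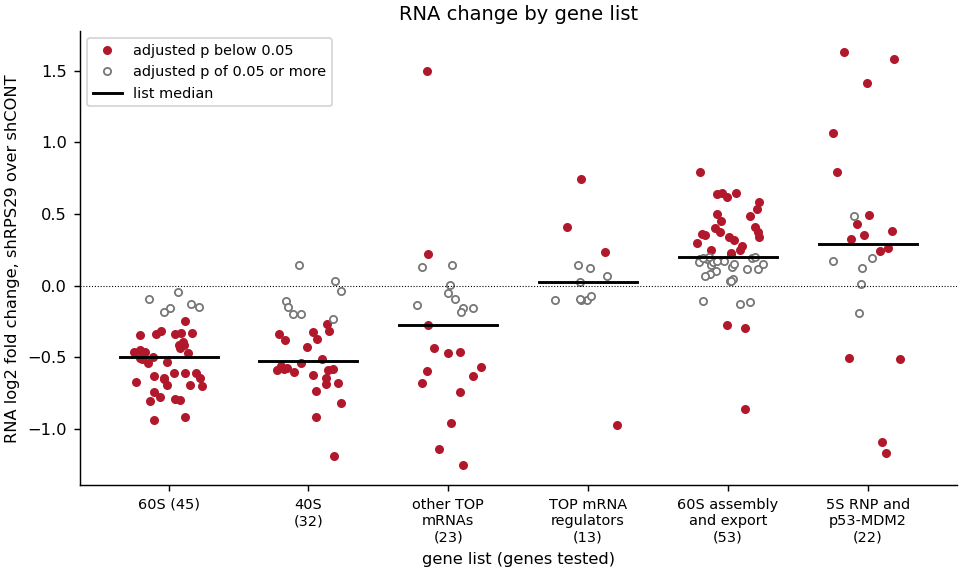
RNA log2 fold change of each gene, shRPS29 over shCONT, in 6 lists, with the number tested in brackets and a bar at the list median. The 60S and 40S medians are -0.50 and -0.53, and the 60S assembly and export factors have a median of 0.20.

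Among the genes around RPL5 and RPL11, the list of 5S RNP assembly factors and the p53-MDM2 axis had 22 genes tested, with a median of 0.29. Of these, 12 were higher (54.5%, against 14.4% of all genes tested). The 4 lower genes made up 18.2%, near the 16.3% of all genes tested. RPF2, which with RRS1 brings the 5S RNP into the pre-60S particle, rose from 50.9 and 53.4 CPM to 101 and 79.2 CPM (log2 fold change 0.79, SE 0.103). GTF3A, the 5S rRNA transcription factor that also binds 5S rRNA, rose by 0.38 (SE 0.092) on that scale, and RRS1 (0.17) and the RPL5 and RPL11 import factor HEATR3 (0.12) were not called. NOP53, which holds the 5S RNP in assembly and is known to affect RPL11 and p53, fell from 443 and 441 CPM to 218 and 197 CPM (-1.09, SE 0.074). MDM4 rose (0.32), while MDM2 was at 134 and 124 CPM with shCONT and 125 and 135 CPM with shRPS29 (0.01, SE 0.075). The p53 target CDKN1A rose from 196 and 187 CPM to 461 and 558 CPM (1.41, SE 0.089), and GDF15, a target of p53 and of stress signalling, rose by 1.63 (SE 0.092). The p53 targets FAS (1.58), PHLDA3 (1.07) and BAX (0.49) were also higher. The p53 target ZMAT3 was lower (-0.52, SE 0.086), and MDM2, also a target, was not called. RBM14 was lower (-0.51). MYCN was lower (-1.17, SE 0.329) at a low level, with 5.02 and 3.01 CPM with shCONT and 1.79 and 1.77 CPM with shRPS29. Protein levels and binding to MDM2 were not measured in these assays.

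In Ribo-seq the members' median change was of similar size, but the libraries varied far more and a single gene was called. A total of 42 genes passed the count filter, and RPL7, RPL29 and RPL36A did not. RPL35A fell, 0 genes rose, and the median log2 fold change was -0.52, with 34 values negative and 8 positive. At an unadjusted p below 0.05, 2 members were lower and 0 higher, and DESeq2 and limma-voom each called 1 lower and 0 higher. Of all 11853 genes tested in Ribo-seq, 0.607% were called lower and 7.96% higher, and the median was 0.04. Among abundant mRNAs, 2321 genes with at least 100 RNA CPM had a Ribo-seq median of -0.61. Of their values 78.2% were negative, against 81.0% for the members. That set was not matched to the members, whose RNA ran from 317 to 2360 CPM in the controls. The members' median was no lower than that of abundant mRNAs in general.

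Knockdown replicates differed in Ribo-seq. Both knockdown libraries lay below both controls in 26 of the 42 genes and above in 1, with 15 overlapping, and 26.7% of all genes tested lay below in the same way. Replicate 1 of the knockdown was below replicate 2 in 37 of the 42 genes and the lowest of the 4 libraries in 33. The members' median log2 ratio to the control mean was -0.90 in replicate 1 and -0.32 in replicate 2, the opposite order to RNA-seq. Without knockdown replicate 2 the median change was -0.97, and without replicate 1 it was -0.24. Over genes with almost no RNA (1174 genes at or below 0.1 RNA CPM that hold no small RNA gene), Ribo-seq background was 0.361 and 0.273 counts per kilobase of gene span in the knockdown and 0.0861 and 0.0476 in the controls. The part of that background in the members' changes was not tested.

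RPL35A, a surface protein of the subunit and one of the Diamond-Blackfan genes, had the largest Ribo-seq change. It had 1333 and 1044 counts with shCONT and 133 and 349 with shRPS29, or 398 and 317 CPM against 55.3 and 87.5 CPM. Both knockdown libraries lay far below both controls, a log2 fold change of -2.32 (SE 0.596, edgeR adjusted p = 0.0223). The call held in each scaling and tool tried and was lost when either control library was left out (largest edgeR adjusted p = 0.243). Its RNA change was -0.54, and the change of Ribo-seq counts per RNA was -1.66 (SE 0.402, edgeR adjusted p = 0.0569), which did not pass. RPL35A overlaps DRC9, a protein-coding gene, in the annotation, so some of its reads may be shared. The next lowest were RPL32, with 19 and 33 counts with shCONT and 3 and 18 with shRPS29 (-1.39, SE 1.03), and RPL9, with 22 and 25 against 11 and 5 (-1.31, SE 1.07). Neither was called.

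The highest Ribo-seq changes were those of RPL6, RPL41 and RPLP0, none of them called. RPL6 had 18 and 23 counts with shCONT and 38 and 61 with shRPS29 (log2 fold change 1.33, SE 0.719, edgeR adjusted p = 0.288). RPL41, the shortest of the ribosomal proteins, had 45 and 20 counts against 16 and 80 (0.47, SE 0.756), and RPLP0 had 50 and 89 against 62 and 124 (0.44, SE 0.573). The groups overlapped for RPL41 and RPLP0 in CPM and were apart for RPL6. RPL5 had 10254 and 17115 counts with shCONT and 4808 and 19285 with shRPS29 (-0.27, SE 0.810). RPL11 had 152 and 155 counts against 51 and 210 (-0.31, SE 0.571). For both genes knockdown replicate 1 was below the controls and replicate 2 was not below both, so that their Ribo-seq change was not detectable at this spread.

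**Figure D4:**
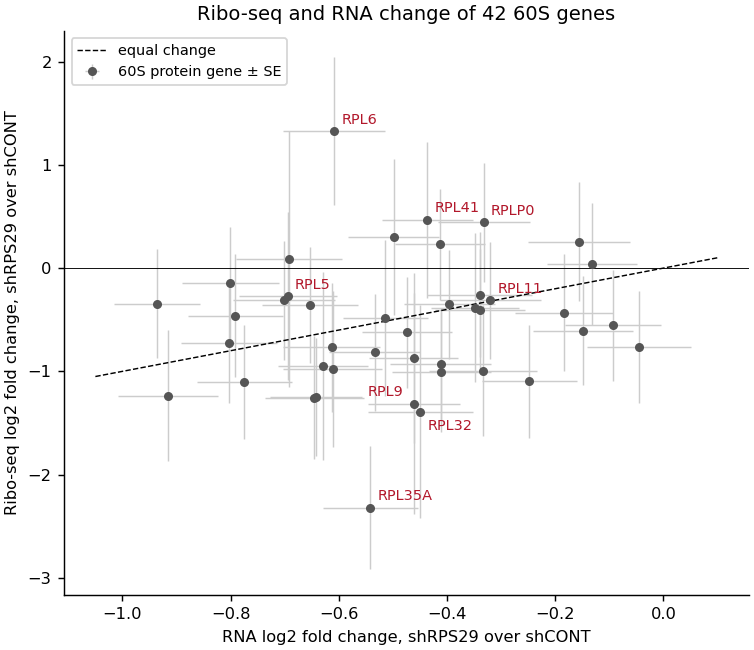
Ribo-seq log2 fold change against RNA log2 fold change for the 42 genes tested in both, shRPS29 over shCONT, with standard errors. The dashed line marks equal change, RPL35A (-2.32) lies farthest below it and RPL6 (1.33) farthest above it.

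Among the stalk genes, RPLP1 had 115 and 129 Ribo-seq counts with shCONT and 45 and 225 with shRPS29, and RPL12 had 217 and 270 against 114 and 508. RPLP2 had 810 and 917 counts against 384 and 900. Scaled to library size, RPLP1 and RPL12 overlapped between groups (log2 fold changes 0.04, SE 0.591, and 0.26, SE 0.580), and RPLP2 did not overlap (-0.43, SE 0.565). RPL35 (-0.61), RPL36 (-0.77) and RPL38 (-0.55), whose RNA was not called, had negative Ribo-seq values with groups that did not overlap, but none passed the test. The exit tunnel genes had 8 of 9 negative Ribo-seq values, a median of -0.87 and 0 calls. The Diamond-Blackfan genes had 9 of 9 negative, a median of -0.93 and RPL35A alone called. Negative values made up 81.0% of those of the 42 members and 78.2% among genes with at least 100 RNA CPM. These groups share genes, and their difference from the other members was not tested. Across 42 genes the RNA and Ribo-seq log2 fold changes had r = 0.12 (rho 0.13).

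Ribo-seq counts relative to RNA (translational efficiency) were tested as the interaction of assay and hairpin. Over 42 members the median log2 change was 0.02, with 21 values negative and 21 positive. RPL6 was called higher and 0 members lower in edgeR. At an unadjusted p below 0.05 the counts were 1 higher and 1 lower, and DESeq2 and limma-voom each called 1 higher (RPL6) and 1 lower (RPL35A). Of all 10648 genes tested, 3.01% were called higher (321) and 0.873% lower (93), with a median of 0.06. The 2321 abundant mRNAs had a median of -0.44, so the members stood above that value, and the 40S genes did likewise with a median of 0.15 over 31 genes. Scaling moves this level. With total counts alone 282 genes were higher and 602 lower, the members' median was -0.36 and that of all genes -0.33.

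RPL6, a protein of the subunit surface whose RNA fell by 0.61 on the log2 scale, had a Ribo-seq CPM per RNA CPM of 0.00325 and 0.00403 with shCONT and 0.0129 and 0.0153 with shRPS29. The groups did not overlap, a log2 change of 2.06 (SE 0.393, edgeR adjusted p = 0.0363). In this test both assays share the gene's dispersion, and the SE is smaller than that of its Ribo-seq change alone (0.719). The spread of the Ribo-seq libraries may thus be understated here. The counts behind it are few. The background expected over its span was 1.18 and 0.650 counts with shCONT and 4.93 and 3.72 with shRPS29, which is 8.74% of its knockdown counts. RPL6 also has 32 annotated pseudogenes. The call was lost without either RNA knockdown library, without either RNA control and without Ribo-seq control replicate 2 (largest edgeR adjusted p = 0.237), at log2 changes of 1.91 to 2.23. In these 5 fits edgeR called 0 of 10731 to 11311 genes in either direction, with 988 to 1993 higher and 440 to 1346 lower at an unadjusted p below 0.05. It was also lost with no count filter and against a 1.5-fold change.
The next highest members were RPL41 (1.05, SE 0.699) and RPL17 (0.91, SE 0.604), and after RPL35A the lowest were RPL9 (-0.85, SE 0.610) and RPL32 (-0.75, SE 0.628). RPL17 had 7838 and 4604 Ribo-seq counts with shCONT and 3372 and 12759 with shRPS29, with overlapping groups. RPL5 had 3.41 and 5.50 Ribo-seq CPM per RNA CPM with shCONT and 3.20 and 9.42 with shRPS29 (0.54, SE 0.624). RPL11 had 0.0635 and 0.0583 against 0.0319 and 0.0954 (0.13, SE 0.531).

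The members differed from one another in Ribo-seq counts per RNA far more than they changed with the knockdown. In the controls the ratio of CPM ran from 0.000867 for RPL29 to 93.1 for RPL27A, a 107000-fold range. Their RNA levels spanned 317 to 2360 CPM. RPL27A took 10.8 and 8.81% of all Ribo-seq counts with shCONT and 4.60 and 12.8% with shRPS29, with 313440 and 285008 counts against 121061 and 562149. The RPL27A gene (chr11:8682792-8689872), which overlaps TRIM66, holds SNORA3A and SNORA3B, small nucleolar RNA genes that guide RNA modification, within its span. RPL21 (ratio 27.8) holds SNORD102 and SNORA27, RPL5 (4.45, overlapping DIPK1A) holds SNORD21 and SNORA66, RPL17 (2.93) holds SNORD58A, SNORD58B and SNORD58C, RPL37 (1.37) holds SNORD72, and RPL3 (1.15) holds 4 snoRNA genes. The 21 members that hold a small RNA gene had a median ratio of 0.111 and ran from 0.012 for RPL32 to 93.1 for RPL27A. RPL10A (0.0175) and RPL10 (0.0242), which also hold one, lay low as well. The 24 that hold none had a median of 0.0569 and ran from 0.000867 for RPL29 to 0.946 for RPL35A. Whether small RNA fragments were removed before counting is not given, and their part in these ratios was not tested.

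**Figure D5:**
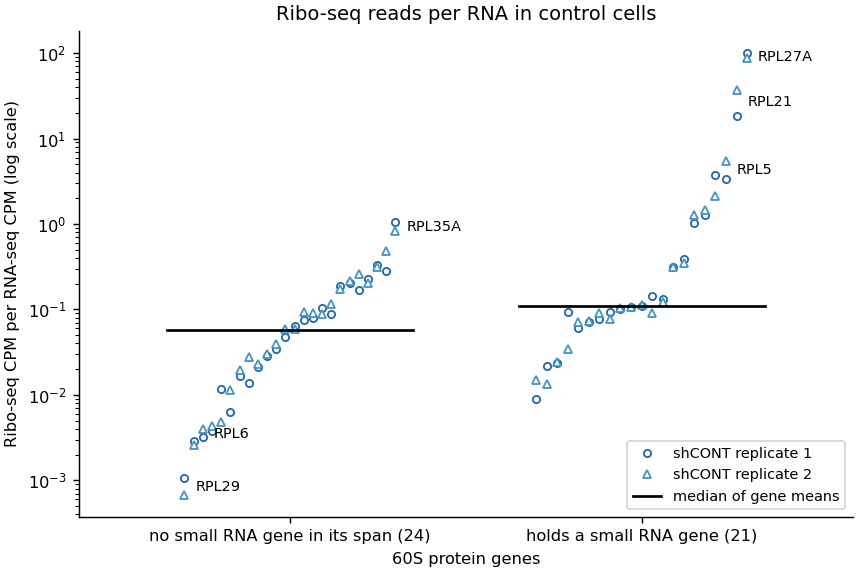
Ribo-seq CPM divided by RNA-seq CPM (log axis) in each of the 2 control libraries for the 45 genes, split by whether an annotated small RNA gene lies within the gene's span, with a bar at the median of the gene means. RPL27A (93.1), RPL21 (27.8) and RPL5 (4.45) are the highest of the genes that hold one, and RPL35A (0.946) is the highest of those that do not.

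At the other end, RPL29, RPL7, RPL6 and RPL36A had ratios between 0.000867 and 0.00403 in the controls. RPL7 had 9 and 8 Ribo-seq counts with shCONT and 7 and 31 with shRPS29, RPL29 3 and 2 against 3 and 16, and RPL36A 5 and 6 against 1 and 1. These 3 genes fell below the count filter, although their RNA was well covered and was called lower. None of the 4 holds a small RNA gene, and they have 34, 61, 32 and 52 annotated pseudogenes in that order. The median ratio of 2349 genes with at least 100 RNA CPM was 0.203, with CPM on total counts. The members' median was 0.0853 with TMM-scaled CPM, so the 2 medians are on unlike scales. Over all 45 members, the log2 ratio had r = 0.16 (rho -0.03) with the number of pseudogenes. Over the 24 members without a small RNA gene it had r = -0.27 (rho -0.20). The part of pseudogenes in the ratios was not tested. Most Ribo-seq counts of the set were those of RPL27A, and all members together took 13.2 and 12.1% of counts with shCONT and 5.89 and 14.7% with shRPS29. The 24 members that hold no small RNA gene, RPL35A among them, took 0.197 and 0.194% with shCONT and 0.0724 and 0.116% with shRPS29. Both knockdown libraries were below both controls. These are shares of total counts, without the correction for composition. With total counts alone as scaling, the Ribo-seq median over all genes tested was -0.21.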

How the data were processed

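The deposited files are 2 tables of raw counts per gene symbol that the authors made, 1 for RNA-seq (17927 genes) and 1 for Ribo-seq (14019 genes). The build was hg38 and the tools were STAR, Bowtie2, Salmon, featureCounts and Trim Galore, per the submitters' processing notes. The sources used here do not give the tool behind each table, the annotation, the strand setting or any removal of small RNA reads. Without them, reads of small RNAs inside a gene, of pseudogenes and of overlapping genes may be counted for that gene. Per the labels' protocols, RNA-seq used a stranded total RNA kit, and Ribo-seq used RNase I digestion with cycloheximide, a size column, rRNA depletion and a small RNA kit. All count columns were assigned to samples, and 0 rows named no gene.

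In R 4.3.3, edgeR 4.0.16 was used for quasi-likelihood F tests of the counts after filterByExpr, with TMM scaling and Benjamini-Hochberg adjustment over all genes tested in a comparison. An adjusted p below 0.05 was a call. Standard errors were derived as the size of the log2 fold change over the root of its F value. Ribo-seq change per RNA was the assay-by-hairpin interaction in 1 model over 8 libraries, with TMM within each assay. There both assays share a gene's dispersion, so its standard errors can be smaller than those of Ribo-seq alone. The tests were tried on simulated data. CPM values use TMM-scaled library sizes. Alternatives were RLE, total counts, TMM over other gene sets, DESeq2 1.42.0, limma-voom (limma 3.58.1), no filter, at least 50 counts in each group mean, replicate number as a term, a test against a 1.5-fold change and leaving out each library. Positions, embedded small RNA genes, pseudogenes (by symbol) and start sequences are from RefSeq tables of GRCh38.p14.

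Values per library are given for RPL5, RPL11, the stalk genes, the 3 lowest and 3 highest members in each comparison and members whose RNA was not called. Of other lists the 3 genes with the smallest RNA p were named, and any gene of the 5S RNP and p53 list. RPS29 is the check of the knockdown. LARP1, MTOR and other members named for Ribo-seq or ratios were chosen after their values were seen. The members and lists were chosen with earlier results of these data known. No test of a list was made. A few genes of these lists are not reported here.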

Additional observations from a re-analysis of the deposited data

Results flagged for a closer look

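In edgeR with all 8 libraries, RPL6 was the 1 member whose Ribo-seq change differed from its RNA change in the test of the difference itself, the assay-by-hairpin interaction, with a log2 difference of 2.06 (edgeR adjusted p = 0.0363). Its RNA log2 fold change was -0.61 and its Ribo-seq log2 fold change 1.33, on 18 and 23 Ribo-seq counts with shCONT and 38 and 61 with shRPS29. The Ribo-seq change alone had an SE of 0.719 and was not called. The SE of the difference was smaller (0.393), because both assays share the gene's dispersion in that test. It was higher per RNA in 2 of 2 knockdown libraries. The RPL6 call was lost with no count filter, against a 1.5-fold change and without 5 single libraries. RPL35A was called lower per RNA with DESeq2, limma-voom and total counts alone. The cause was not tested.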

How the results depend on the processing

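The 39 RNA calls became 35 to 39 under RLE, total counts, TMM without ribosomal protein genes, DESeq2, limma-voom, either other count filter and the replicate block, and 28 to 45 when a library was left out. Against a 1.5-fold change, 2 were called. The RNA median ranged from -0.62 (without shRPS29 replicate 1) to -0.38 with a library left out. Of the 39 calls, 27 were lost in none of these settings other than the 1.5-fold test.

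Replicate numbers are shared between groups, but the labels do not say that they pair libraries, and same-numbered deviations correlated by -0.08 in RNA-seq and 0.11 in Ribo-seq. With the replicate number as a block, 35 RNA, 2 Ribo-seq (RPL35A and RPL7A) and 0 higher per-RNA calls resulted. RPL3, RPL11, RPL14 and RPLP0 lost their RNA call, and RPL6 its per-RNA call.

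Ribo-seq calls lower were 0 to 1 with a library left out. The Ribo-seq median was -0.17 with at least 50 counts in each group mean and -0.97 to -0.24 with a library left out. Changes per RNA called lower were 1 with total counts alone, DESeq2 and limma-voom, and 0 to 8 with a library left out, the 8 without Ribo-seq shRPS29 replicate 2. Changes per RNA called higher were 0 without a filter, with at least 50 counts (RPL6 then untested), and against a 1.5-fold change, and 0 to 6 with a library left out, the 6 without Ribo-seq shRPS29 replicate 1. The median change per RNA was -0.36 with total counts alone. Over all genes, total counts alone moved the Ribo-seq median from 0.04 to -0.21 and TMM over genes with at least 10 RNA CPM moved it to 0.30. The members' share of Ribo-seq counts in the controls was 15.6% over genes with at least 10 RNA CPM in place of 12.7%.

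Single genes were followed for 45 members in RNA and for the 15 members named by rule in Ribo-seq and per RNA, and the other members were not followed singly there. Among these, 26 values of 10 genes changed sign, and 0 of them had been called. In RNA these were RPL36 (0.03 with total counts alone) and, without shRPS29 replicate 2, RPL35 (0.01), RPL36 (0.13) and RPL38 (0.04). In Ribo-seq, RPL5 was 0.01 with at least 50 counts, 0.15 without shCONT replicate 2 and 0.24 without shRPS29 replicate 1, where RPL11 was 0.20. RPL17 was -0.03 without shCONT replicate 2. RPLP1 was -0.20 with total counts alone, -0.12 with limma-voom, -0.15 with the replicate block and -0.07 without shCONT replicate 1. Without shRPS29 replicate 2, RPLP1 was -1.04, RPL12 -0.70, RPL17 -0.49 and RPL41 -0.63. Per RNA, RPL11 was -0.27 and RPLP1 -0.10 with total counts alone, RPL11 was -0.01 without RNA shRPS29 replicate 2, and RPLP2 was 0.05 with at least 50 counts and 0.06 without Ribo-seq shRPS29 replicate 1. Without Ribo-seq shRPS29 replicate 2, RPL11 was -0.67, RPL12 -0.34, RPL5 -0.22 and RPLP1 -0.71. Over fits with a library left out, these genes reached, at the far end of their range, -0.32 (RPL35) and -0.25 (RPL36) in RNA, -1.20 (RPL11), 0.81 (RPL12), 0.79 (RPL17), 1.13 (RPL41), -1.12 (RPL5) and 0.63 (RPLP1) in Ribo-seq, and 0.59 (RPL11), 1.04 (RPL12), 1.01 (RPL5), 0.83 (RPLP1) and -0.39 (RPLP2) per RNA. The causes were not tested.

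RPL7, RPL29 and RPL36A, with 1 to 31 Ribo-seq counts a library, were not tested at this depth. With 2 libraries a group, 1 library can end a call.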
